A study of Mus musculus with 384 samples.

Results

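The splicing factor genes *Snrnp70* and *Rbm4* were followed through 380 targeted RNA libraries from the brains of 32 mice. They were taken by name from a table of 69 genes, so the members are 2 of 69 genes. According to the labels all animals were male Balb/c mice without any stated genetic change, and each library came from micropunches of 1 of 12 region labels of 1 mouse. Each mouse carried the status label MS or Co and the label inject or naive, which makes 4 label groups with 8 mice and 95 libraries with values in each. The study's methods describe rearing with little nesting material or with handling, followed by housing with a female or by social defeat in adulthood, but no source used here pairs these conditions with MS, Co, inject and naive. The label groups are therefore given by their names only. The labels also state an age of 9 postnatal days for all animals, whereas the methods describe adults, and the labels name a region Pit where the methods name the nucleus accumbens.

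*Snrnp70* encodes U1-70K, a protein of the U1 small nuclear ribonucleoprotein. U1 recognises the 5′ splice site at the start of an intron, and U1-70K helps to hold this particle together and to bring it into contact with splicing regulators. *Rbm4*, related to the fly gene lark, encodes an RNA-binding protein that can influence which exons are kept in a transcript and which mRNAs are translated. Both genes are used in most cell types, neurons included. Since a micropunch holds many cell types, fewer cells of a type and less RNA per cell cannot be told apart in these values.

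The unit throughout is the normalized read number, which is the number of reads of a gene divided by a size factor of the library. *Snrnp70* had a median of 199 over the 380 libraries, with values from 0 to 477, and stood at place 43 of the 69 genes. *Rbm4* had a median of 110 with values from 0 to 487 and stood at place 51. These medians corresponded to 202.5 and 116 reads per library. Assays differ in amplification, so this order is no comparison of transcript numbers between the genes.

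*Snrnp70* is a gene of the minus strand on chromosome 7, between positions 45376453 and 45395742 of build GRCm38 (mm10), with 10 exons and a coding sequence of 1344 bases in the transcript used here. The annotation (GENCODE M21) gives it 17 transcripts, of which 5 are protein coding and 9 retain an intron. *Rbm4* is also a gene of the minus strand, on chromosome 19 between positions 4784293 and 4793901, with 4 exons and a coding sequence of 1083 bases. It lies inside a second annotated coding gene of the same strand, *Gm21992*, which spans 4742913 to 4811612. The paralog *Rbm4b* lies 17227 bases away on the plus strand. Where on the transcripts the assays sit was not given in the sources used here, so the specificity of a read of 50 bases was examined over whole transcripts.

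All 1686 windows of 50 bases along *Snrnp70* were free of exact matches in transcripts of other genes. Of 2561 windows along *Rbm4*, 1702 occurred exactly in another gene, all of them in *Gm21992*. These included all 1034 coding windows of *Rbm4*. Of those coding windows, 376 were also identical in *Rbm4b* and 394 (38.1%) were within 3 mismatches of it, with a median of 7 mismatches. The first coding bases are shown because *Rbm4* and *Rbm4b* cannot be told apart there (chr19:4792760-4792809, minus strand, from the start codon, for *Rbm4*), and a stretch with the median number of mismatches is shown as transcript bases 651 to 700 of *Rbm4* and 513 to 562 of *Rbm4b*, with differing bases in capitals.
Rbm4, first coding bases: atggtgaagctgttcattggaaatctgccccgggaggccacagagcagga
Rbm4b, first coding bases: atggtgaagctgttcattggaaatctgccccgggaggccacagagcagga
Rbm4, median window: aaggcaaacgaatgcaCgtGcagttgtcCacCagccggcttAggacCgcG
Rbm4b, median window: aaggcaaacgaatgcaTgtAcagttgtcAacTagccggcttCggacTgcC

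The identifiers in the table end in a pair of adjacent numbers, and for all 68 genes matched to a transcript their order followed the strand of the gene. Read as exons counted from 0 along the chromosome, the pair of *Snrnp70* (8 and 7) names the junction of exons 2 and 3, inside the coding sequence. The pair of *Rbm4* (3 and 2) then names the junction of exons 1 and 2, which lies 11 bases before the start codon. In 66 of 68 genes both numbers were below the number of exons, and in 2 the higher equalled it, which counting from 0 cannot give. This checks the range of the numbers only and does not show that the reading is right. This reading comes from the identifiers alone. None of the 49 windows of 50 bases across the *Snrnp70* junction was shared with another gene. All 49 windows across the *Rbm4* junction were shared with *Gm21992*, while none was within 3 mismatches of *Rbm4b* (7 to 27 mismatches). Values of *Rbm4* are thus uncertain as to *Gm21992*, whose annotated transcripts hold the same exons. The *Snrnp70* junction is shown as the sequence that the assay would read, with exon 3 in capitals (minus strand, chr7:45394659-45394683 joined to chr7:45392301-45392325).
Snrnp70, exon 2 to exon 3: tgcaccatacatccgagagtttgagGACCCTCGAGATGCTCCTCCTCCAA

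Depth and the region labels bear on both genes. Reads per library ran from 12898 to 261007 with a median of 139846, region medians ran from 94437 in PFC to 183554 in dCA3, and 8 libraries had under 50000 reads. Of 40 marker genes listed for the tissues and cell types, 2 were in the table, *Lrrc25* and *TNF*, so the region labels could not be checked against defining markers. Libraries of 6 region labels fell into separate ranges for another gene. *Anxa2* had an upper range in 16 of 32 Pit, 8 of 32 dDG and 7 of 31 vDG libraries, and *Ociad2* had a lower range in 8 of 32 CER, 8 of 32 dCA3 and 16 of 32 vCA3 libraries. Over their 3 labels, the upper *Anxa2* libraries numbered 31 and the lower *Ociad2* libraries 32, about as many as a single region label holds. Whether region labels were exchanged within Pit, dDG and vDG or within CER, dCA3 and vCA3 was not tested, so the values of these 6 labels are those of the libraries that carry the label. Region pairs and label terms are given with and without the upper *Anxa2* and lower *Ociad2* libraries. The mice are the replicates of the label groups, whereas regions of a mouse are not independent animals.

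*Snrnp70* was lowest in the hippocampal CA labels and the cerebellum and highest in the dentate gyrus labels and Pit. The lowest region median was 148 in dCA3 (values 77.2 to 348, n = 32). CER followed with 153 (72.3 to 268), dCA1 with 155 (80.0 to 275), vCA1 with 171 (60.3 to 324) and vCA3 with 186 (53.6 to 470). In the middle of the order stood PVN with a median of 196 (41.97 to 377, n = 30), AMY with 215 (60.0 to 293) and PFC with 228 (0 to 409). The highest medians were those of BNST with 229 (112 to 381, n = 31), Pit with 251 (76.3 to 433), dDG with 254 (93.3 to 477) and vDG with 286 (44.8 to 427, n = 31). The medians spanned a ratio of 1.93, and the values of every region label overlapped with those of every other. In all 11 pairs of neighbours in this order, the means on the log2(value + 1) scale differed by less than 1 SD between samples.

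**Figure D1:**
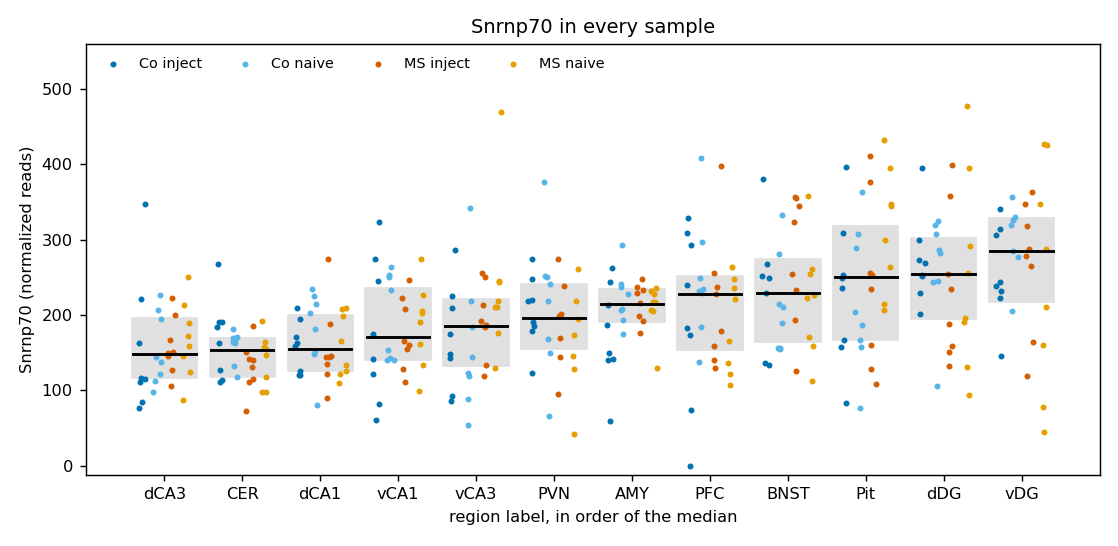
Normalized reads of *Snrnp70* (y axis) in each of the 380 libraries by region label (x axis, ordered by the median), coloured by label group. Black lines are medians and grey boxes span the quartiles. The medians run from 148 in dCA3 to 286 in vDG, the ranges overlap throughout, and 1 PFC library lies at 0.

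Of the 66 region pairs, 30 passed an adjusted p of 0.1 for *Snrnp70* (limma on log2(value + 1), Benjamini-Hochberg over all genes and pairs). The background is high, since 51.1% of all gene and pair tests passed, and 30 of 66 is no more than that. dDG, vDG and Pit were each higher than the same 7 labels, namely CER, dCA1, dCA3, PFC, PVN, vCA1 and vCA3. vDG exceeded CER by 0.75 (SE 0.17, adjusted p = 6.7e-05 by limma) and dCA3 by 0.70 (SE 0.17, adjusted p = 0.00021 by limma) on the log2 scale. BNST was higher than 6 labels, for example CER by 0.61 (SE 0.17, adjusted p = 0.0013 by limma), and AMY was higher than CER, dCA1 and dCA3. No call separated dDG, vDG and Pit from each other. Without the upper *Anxa2* and lower *Ociad2* libraries, 24 of 66 pairs passed (background 45.1%). In that setting 7 of the 30 pairs did not pass, with differences in the same direction and adjusted p-values of 0.10 to 0.23 by limma. Pit exceeded PFC by 0.41 with all libraries and 0.38 without these, PVN by 0.35 and 0.32, and vCA1 by 0.41 and 0.39. For dDG the values were 0.46 and 0.37 over PFC and 0.40 and 0.31 over PVN. vDG exceeded PVN by 0.43 and 0.37, and AMY exceeded dCA1 by 0.34 in both settings. PVN over dCA3 passed only without these libraries (0.27 and 0.39). Of the 15 pairs among AMY, BNST, PFC, PVN, dCA1 and vCA1, 4 passed in the fit of all labels and 1 when these labels were fitted alone (background 15.3%).

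The 4 pairs in which PFC was lower (against BNST, dDG, Pit and vDG) rested on 1 library. Without the PFC library of Co inject mouse 267, which held 24672 reads and none of *Snrnp70*, the difference of dDG and PFC fell from 0.46 to 0.22 on the log2 scale (adjusted p = 0.18 by limma) and all 4 were lost, while PFC became higher than CER, dCA1 and dCA3. The count over all pairs was then 32. The choice of scaling touched BNST and AMY: with every library rescaled to the same total, 28 pairs passed (background 53.9%), 7 of the 30 being lost, 5 with BNST and 2 with AMY as the higher label. The difference of BNST and CER was then 0.28 (adjusted p = 0.17 by limma) in place of 0.61, that of BNST and dCA3 0.22 in place of 0.56, and that of AMY and CER 0.25 in place of 0.46. The 5 pairs gained under it were AMY and BNST each with dDG and vDG, and dCA1 with vCA3. That rescaling moved the median of all genes by up to 0.34 (log2) and by over 0.1 in 41 of the 66 pairs, and the 30 called pairs kept their sign under it.

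*Rbm4* had its highest medians in the same 3 labels as *Snrnp70* but another order below them. The lowest medians were 81.8 in dCA1 (2.11 to 294, n = 32), 82.4 in vCA1 (9.27 to 204), 84.6 in AMY (0 to 237) and 90.8 in PVN (0 to 381, n = 30). CER followed with 101 (75.6 to 204), BNST with 102 (0 to 289, n = 31), PFC with 104 (0 to 487) and dCA3 with 111 (60.2 to 266). Above them stood vCA3 with a median of 130.2 (38.2 to 215), vDG with 156 (48.5 to 267, n = 31), dDG with 176 (61.7 to 297) and Pit with 179 (72.2 to 381). The ratio of the highest to the lowest median was 2.19. In 9 of the 11 pairs of neighbours the means on the log2(value + 1) scale differed by less than 1 SD, the exceptions being PVN with CER and PFC with dCA3, where the lower label held samples near 0. The label with the lowest *Snrnp70* median, dCA3, stood eighth of the 12 for *Rbm4*, but these places depended on the scaling. As a share of the reads of the library, the lowest median lay in dCA1 for both genes, and the highest in vDG for *Snrnp70* and in dDG for *Rbm4*.

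**Figure D2:**
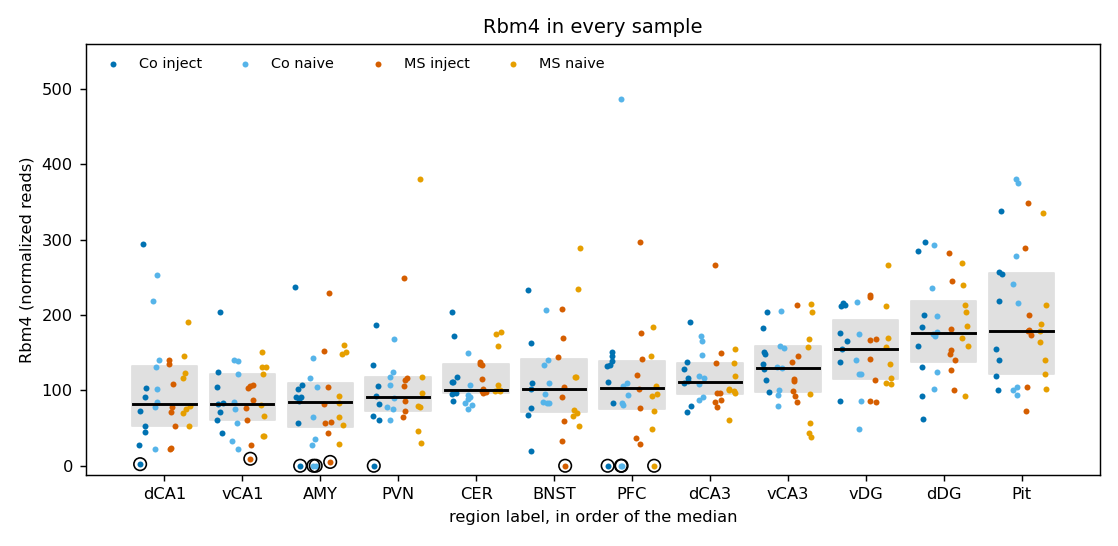
Normalized reads of *Rbm4* (y axis) in each library by region label (x axis, ordered by the median), coloured by label group. Lines are medians, grey boxes span the quartiles and open circles mark the 12 samples near 0, of which 4 lie in AMY, 4 in PFC and 1 each in BNST, PVN, dCA1 and vCA1.

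The gene was chosen with its low values in AMY and PFC known, so the pairs with these labels are left as the medians above, without a test. Of the remaining 45 region pairs, 16 passed for *Rbm4*, against a background of 52.1% over all genes. The fit holds 1 spread per gene over all 12 labels, so the near-0 samples of AMY and PFC enter the SE of these pairs as well. Pit was higher than 6 labels, for example vCA1 by 1.26 (SE 0.31, adjusted p = 0.00026 by limma) and dCA1 by 1.23 (SE 0.31, adjusted p = 4e-04 by limma) on the log2 scale. dDG and vDG were each higher than BNST, PVN, dCA1 and vCA1, and vCA3 was higher than dCA1 and vCA1. Among 7 tested pairs of neighbours in the order of medians none passed in this fit, the lowest adjusted p by limma was 0.28 and none had an unadjusted p under 0.05. Without the 12 samples near 0, all 16 pairs still passed and the count rose to 27 (background 53.2%). This setting removes samples by the value of the tested gene, so it is a description and no support for the pairs. CER minus dDG, labels without near-0 samples, stayed at −0.60 while its adjusted p by limma went from 0.105 to 0.0018. Pit minus vCA3 stayed at 0.57 (adjusted p by limma 0.13 and then 0.0033). The count of pairs thus depends on the near-0 samples, also for labels that hold none. With every library rescaled to the same total, 24 pairs passed (background 55.7%). Of the 16 pairs, 2 did not pass under it, Pit over CER, with a difference of 0.68 before and 0.55 after rescaling (adjusted p = 0.14 by limma), and Pit over dCA3, with 0.66 and 0.53 (adjusted p = 0.16 by limma). The rescaling gained 10 pairs, some of them neighbours in the order of medians. CER minus PVN was 0.43 before and 0.74 after it (adjusted p = 0.044 by limma), and BNST minus CER −0.35 and −0.68 (adjusted p = 0.068 by limma).

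The *Rbm4* level also differed between the libraries that stand apart for *Anxa2* or *Ociad2* and the others. In Pit, *Rbm4* had a median of 256 (179 to 381) in the 16 libraries of the upper *Anxa2* range and 120.4 (72.2 to 216) in the other 16. The same direction held in dDG, with 257 in 8 libraries and 171 in 24, and in vDG, with 214 in 7 and 139 in 24. In the lower *Ociad2* range, *Rbm4* had medians of 144 in CER, 152 in dCA3 and 159 in vCA3, while in the upper range the medians were 99.5, 99.9 and 96.6. Across the 3 labels the medians were thus 214 to 257 in the upper *Anxa2* range and 120.4 to 171 in the lower. *Snrnp70* medians differed in the same direction in all 6 labels. In the upper *Anxa2* range they were 255 in Pit, 293 in dDG and 319 in vDG, while in the lower range they were 211, 248 and 282. In the lower *Ociad2* range they were 165 in CER, 208 in dCA3 and 190.1 in vCA3, while in the upper range they were 145, 141 and 160.3. Without the upper *Anxa2* and the lower *Ociad2* libraries, 6 of the 45 *Rbm4* pairs passed, against a background of 45.7%, all of them with dDG or vDG as the higher label. The 6 differences with Pit as the higher label were 0.66 to 1.26 with all libraries and 0.27 to 0.75 without these, and none passed. The 8 pairs with dDG or vDG as the higher label held differences of 0.71 to 1.18 and then 0.60 to 1.03, of which 6 passed. vCA3 exceeded dCA1 by 0.66 and then 0.26 (adjusted p = 0.66 by limma) and vCA1 by 0.70 and then 0.30 (adjusted p = 0.61 by limma). The largest SE rose from 0.32 to 0.43 with fewer libraries. The origin of these ranges was not tested.

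An *Rbm4* sample was called near 0 where its value was under 0.1 of the median over all libraries, that is under 11.03. This held for 12 of 380 samples from 11 mice. All 12 held at most 3 *Rbm4* reads and 9 held none. They came from AMY (4 of 32, 12.5%), PFC (4 of 32, 12.5%) and BNST, PVN, dCA1 and vCA1 (1 each), while CER, dCA3, vCA3, Pit, dDG and vDG had none. AMY and PFC thus held 8 near-0 samples among 64 and the other 10 labels 4 among 316. The highest value inside was 9.27 and the lowest outside was 19.5, a BNST sample, with 21.9 as the next. The 9.27 was 1 read in the vCA1 library of MS inject mouse 99, where 3 reads equal a value of 27.8. In the PFC library of Co inject mouse 267 a count of 0 allows up to 15.2. Counting error alone therefore does not place these samples under the cut. Across label groups the 12 samples fell 4 to Co inject, 4 to Co naive, 3 to MS inject and 1 to MS naive.

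In AMY the 4 near-0 samples were Co inject mouse 243, Co naive mice 251 and 255 with no read each, and MS inject mouse 95 with 3 reads. Their libraries held 64880 to 84004 reads, and at the AMY median 45.4 to 53.6 *Rbm4* reads would have been counted in them. The other 28 AMY samples had a median of 91.2 (27.8 to 237), so a gap separated both sets. *Snrnp70* in the same 4 libraries ran from 186 to 248, inside the range of 60.0 to 293 of the other 28.

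In PFC the 4 samples were Co inject mouse 267, Co naive mice 227 and 239 and MS naive mouse 107, all with 0 reads of *Rbm4*. The library of mouse 227 was the deepest of all PFC libraries, with 166743 reads, and 114 *Rbm4* reads would have been counted in it at the PFC median. A count of 0 allows at most 3 reads there, a value of up to 2.74 (counting error only). Its *Snrnp70* value was 296, from 325 reads. The library of mouse 267 was the shallowest, and there a count of 0 allows a value of up to 15.2, and *Snrnp70* was at 0 as well. The other 28 PFC samples had a median of 108 (29.3 to 487).

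The remaining 4 near-0 samples were BNST of MS inject mouse 81 and PVN of Co inject mouse 267, both with no read, and dCA1 of Co inject mouse 235 and vCA1 of MS inject mouse 99, each with 1 read. The vCA1 library was the shallowest of all with 12898 reads, so that 8.88 reads would have been counted in it at the region median. Mouse 267 was the only animal with near-0 samples in a pair of regions. Its AMY sample had the highest AMY value, 237. In the other 10 mice, 1 sample each was near 0.

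**Figure D3:**
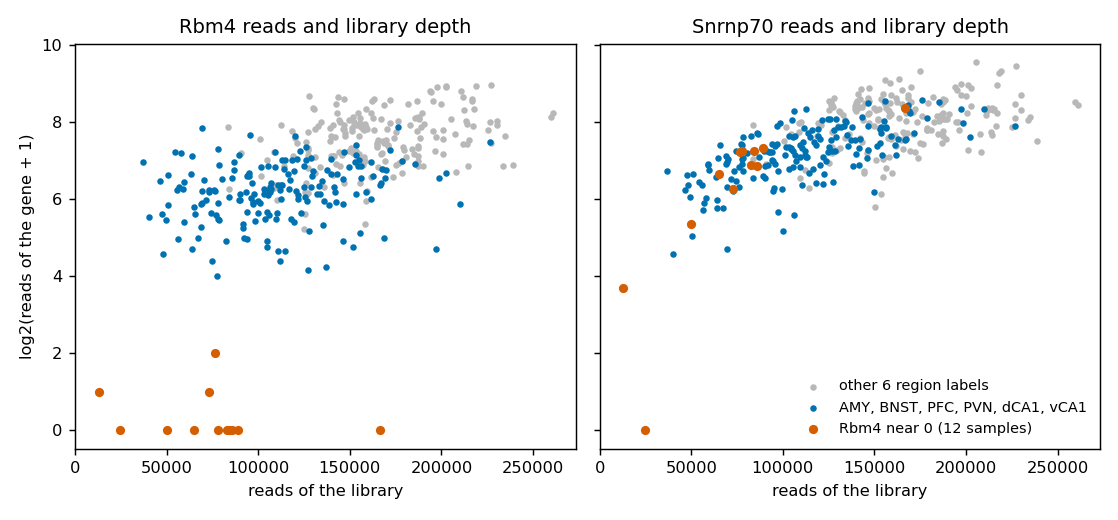
Reads of *Rbm4* (left) and *Snrnp70* (right) on the log2(reads + 1) scale against the reads of the library, with 1 point per library. The 12 samples with *Rbm4* near 0 (orange) lie apart from the other libraries in the left panel, while in the right panel 11 of them hold 12 to 325 *Snrnp70* reads and 1 holds none.

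Depth moved with these samples. The 12 libraries had a median of 77204.5 reads, the remaining 177 of the same 6 region labels 109152, and the 191 of the other 6 labels 161628. Assays at 0 numbered 4 to 20 of 69 in the 12 libraries (median 11.5), 1 to 12 in the 177 (median 6) and 0 to 8 in the 191 (median 2). *Snrnp70* had medians of 199, 202 and 193 in these sets. At least 1 gene other than *Rbm4* with an overall median of 100 or more was near 0 in 6 of the 12 libraries, 22 of the 177 and 16 of the 191. *Snrnp70* was near 0 in 1 of all samples. The 21 genes with an overall median from 50 to 300, both members among them, had 0 to 48 near-0 samples with a median of 2, which is given as a description, since *Rbm4* was chosen with its near-0 samples in AMY and PFC known. The part of depth in the near-0 samples was not tested.

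Genes that shared the near-0 state with *Rbm4* in at least 6 of the 12 samples were mostly of low level. *Fkbp5*, a co-chaperone of the glucocorticoid receptor, was near 0 in 8 of the 12 and in 26 of the other 177 libraries of the same labels (14.7%). *Slc7a7*, an amino acid transporter subunit, was near 0 in 10 of 12 and in 54 of 177, and *Rfx5*, a factor of MHC class II transcription, in 8 of 12 and in 42 of 177. *Mob3a* (6 and 31), *Thbs1* (8 and 63), *Zap70* (8 and 73), *Lcn2* (10 and 107), *Zfp553* (11 and 98) and *Fan1* (10 and 104) completed the list. Of the RNA list described below, *Rps2* was near 0 in 4 of the 12 and in 27 of all 380 samples, *Abcf1* in 3 and 6, *Mknk2* in 3 and 18, *Polr2i* in 1 and 1, and *Prmt5*, *Rps12*, *Rps25* and *Mrpl54* in none.

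The spread of *Rbm4* is given as a description for the 6 labels with near-0 samples and for the other 6. The near-0 samples that define the first set enter its spread, and those of AMY and PFC were known when the gene was chosen. The coefficient of variation over samples was 49.9% in vCA1, 58.2% in BNST, 65.8% in PVN, 66.9% in dCA1, 68.9% in AMY and 82.4% in PFC, of which counting of reads alone would give 11.2% to 13.4%. In the other 6 labels it was 28.0% to 44.9%, with 6.56% to 7.57% from counting. For *Snrnp70* the first set gave 21.9% to 41.1% and the second 25.4% to 42.9%. Without the near-0 samples the coefficients of *Rbm4* were 54.1% in AMY and 68.3% in PFC, and they were not computed for the other labels. On the log2(value + 1) scale the SD of *Rbm4* was 2.12 in AMY and 2.40 in PFC with all samples and 0.79 in both without the near-0 samples.

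**Figure D4:**
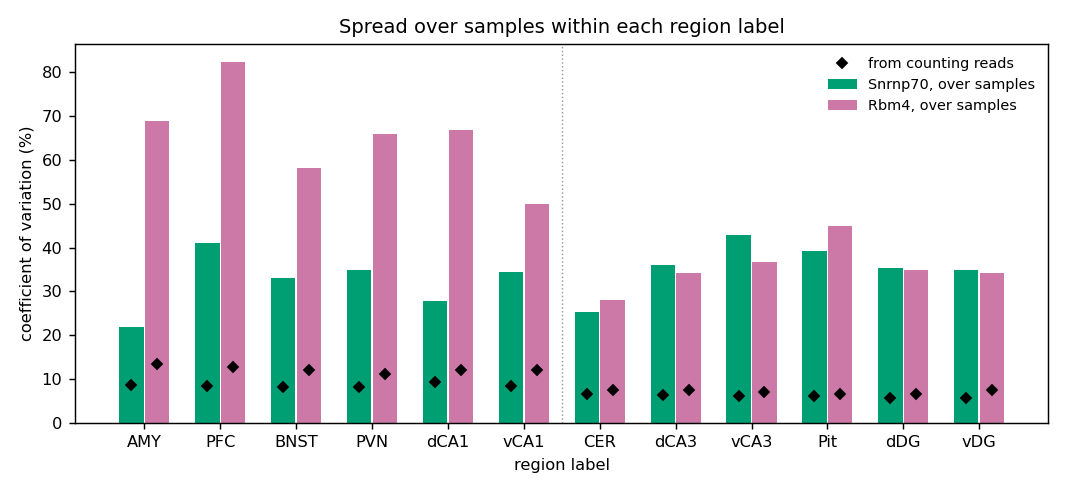
Coefficient of variation (%) of *Snrnp70* and *Rbm4* over the samples of each region label (bars), with the part expected from counting reads (diamonds). To the left of the dotted line stand the 6 labels that hold near-0 samples of *Rbm4*, where its bars reach 49.9% to 82.4%, and to the right the other 6, with 28.0% to 44.9%. The near-0 samples that define the left set enter its bars.

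The label groups were compared to ask whether either gene followed the treatments behind them. Over all regions, the *Snrnp70* medians were 191 (range 0 to 397), 207 (53.6 to 409), 189 (72.3 to 411) and 205 (41.97 to 477) for Co inject, Co naive, MS inject and MS naive, each over 95 libraries. *Rbm4* had medians of 112 (0 to 339), 107 (0 to 487), 106 (0 to 349) and 117 (0 to 381) in the same order. The highest and the lowest median of the 4 groups differed 1.10-fold for each gene, and the ranges overlapped.

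Within the regions, none of 72 tests of the MS against Co, the inject against naive and the interaction terms passed an adjusted p of 0.1 for either gene (limma, Benjamini-Hochberg over the genes of a region). The background was 0.0404%, that is 1 call in 2478 tests over all genes. An unadjusted p under 0.05 was reached by 2 of the 72 tests of the members, both for *Snrnp70* and the MS against Co term. Over all genes it was reached by 72 of 2478 tests, a like share. In vCA3 the Co groups had *Snrnp70* medians of 162 (inject, range 86.3 to 286) and 134 (naive, 53.6 to 342), and the MS groups medians of 190.1 (inject, 119.7 to 257) and 215 (naive, 129 to 470.1). MS exceeded Co by 0.46 on the log2 scale (SE 0.21, 95% interval 0.03 to 0.88, adjusted p = 0.73 by limma). In CER the Co medians were 174 (inject) and 166 (naive), the MS medians 136 (inject) and 152 (naive), and the term was −0.27 (SE 0.13, 95% interval −0.53 to −0.01, adjusted p = 0.82 by limma). These terms pointed in opposite directions, and the groups overlapped in both regions. With 5 principal components of the residuals as covariates the vCA3 term passed (0.46, SE 0.14, adjusted p = 0.044 by limma) as the single call among the 72, while the background rose to 4.12%. These components came from the residuals of the same fit, so they left the difference as it was and changed only its SE, from 0.21 to 0.14. The call therefore adds no support to the test without them. Without the upper *Anxa2* and lower *Ociad2* libraries none of the 72 terms passed by limma (background 0.323%). An unadjusted p under 0.05 was reached by 4 of them, and by 82 of 2478 tests over all genes. The *Snrnp70* term was then 0.70 in vCA3 (SE 0.30, adjusted p = 0.65 by limma, 16 libraries) and −0.14 in CER (SE 0.13, adjusted p = 0.92 by limma). The other 3 of the 4 were *Rbm4* terms. In vCA3 the *Rbm4* MS against Co term was −0.28 with all libraries and −0.53 without these (SE 0.20, adjusted p = 0.65 by limma), and the inject against naive term 0.21 and 0.56 (SE 0.20, adjusted p = 0.90 by limma). In CER the *Rbm4* MS against Co term was 0.16 and 0.29 (SE 0.10, adjusted p = 0.70 by limma).

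**Figure D5:**
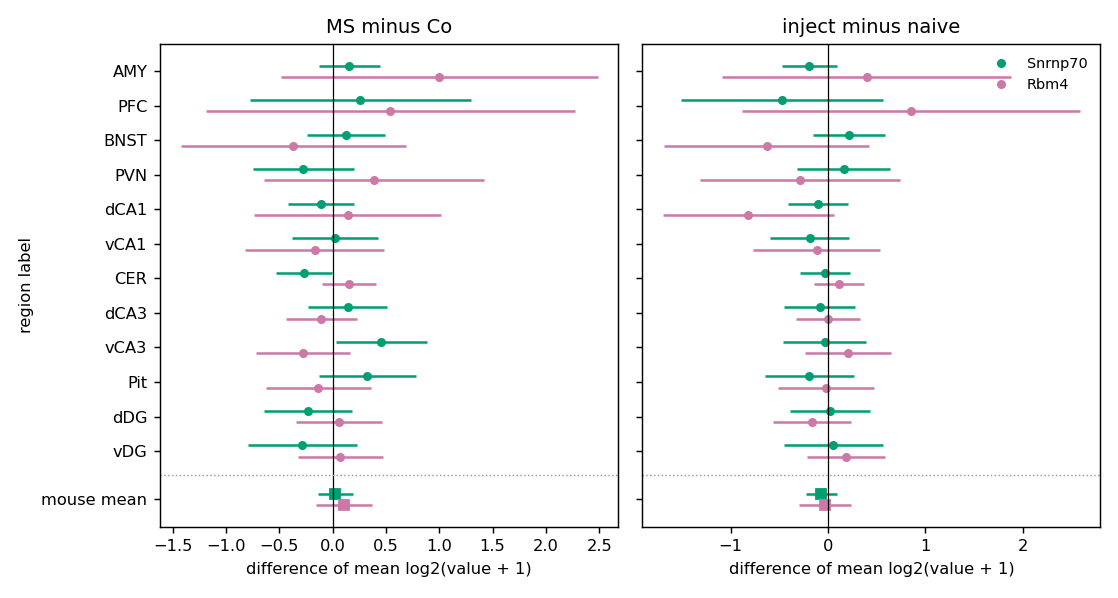
Differences of mean log2(value + 1) with 95% intervals for *Snrnp70* and *Rbm4*, for MS minus Co (left) and inject minus naive (right), by region label and, below the dotted line, on the mean per mouse. All intervals but those of *Snrnp70* for MS minus Co in CER and vCA3 hold 0, and those of *Rbm4* are widest in AMY and PFC.

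For *Rbm4* the MS against Co term ran from −0.37 in BNST to 1.00 in AMY, with 7 regions above 0 and 5 below, and the inject against naive term from −0.82 in dCA1 to 0.85 in PFC, with 6 on either side. The interval of the AMY value was −0.49 to 2.48, which holds both 0 and differences of over 2 on that scale. In AMY the Co groups had *Rbm4* medians of 91.2 (inject, range 0 to 237) and 50.4 (naive, 0 to 143), and the MS groups medians of 69.97 (inject, 5.07 to 229) and 87.9 (naive, 29.5 to 161). In PFC the medians of these 4 groups were 133, 89.1, 112 and 93.7, in the same order of groups. *Rbm4* intervals of these terms had widths of 1.304 to 3.47 in the 6 labels with near-0 samples and 0.51 to 0.98 in the other 6, on the log2 scale. The near-0 samples enter the widths of the first set. For *Snrnp70* the inject against naive term ran from −0.48 in PFC to 0.22 in BNST. The PFC term includes the Co inject library of mouse 267 at 0. The *Snrnp70* medians in PFC were 211 in Co inject, 233 in Co naive, 203 in MS inject and 193 in MS naive.

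On the mean over the regions of a mouse, with 8 mice a group, none of 6 tests passed for the members by limma and none had an unadjusted p under 0.05, against a background of 0.483% (1 call in 207 tests). The MS against Co difference was 0.03 for *Snrnp70* (95% interval −0.13 to 0.19) and 0.11 for *Rbm4* (−0.16 to 0.37) on the log2 scale. The inject against naive difference was −0.07 for *Snrnp70* (−0.23 to 0.09) and −0.03 for *Rbm4* (−0.30 to 0.23). The label terms were also compared between regions by an F test in limma with the mouse as a block. None of 4 tests passed, none had an unadjusted p under 0.05, and none of the 138 tests over all genes passed, a background of 0%. Neither member was thus shown to respond differently in different regions.

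The members were compared with each other and with the other genes whose overall median was 100 or more (51 genes for each member), as a description without a test. Over the means of the 12 region labels, the correlation of *Snrnp70* and *Rbm4* was 0.415, which put *Rbm4* at place 22 of the genes most like *Snrnp70*. The nearest genes to *Snrnp70* were *Nedd4*, a ubiquitin ligase (r = 0.935), *Vhl*, a part of another ubiquitin ligase (0.863), and *Pds5a*, a cohesin regulator (0.790). The nearest to *Rbm4* were the kinase gene *Akt1* (0.944), the phosphatase gene *Mtmr3* (0.935) and *Ube2g2*, a ubiquitin-conjugating enzyme (0.934). By this measure the nearest genes of the members were not the same. The *Rbm4* means of AMY (5.72 on the log2 scale) and PFC (5.94) include the near-0 samples that were known when the gene was chosen. The correlations without these samples were not computed. The 12 points share mice and size factors, and the separate *Anxa2* and *Ociad2* ranges enter 6 of them.

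Over the 380 samples, after the mean of the region label and label group had been subtracted, *Snrnp70* was most like *Polr2i*, an RNA polymerase II subunit (r = 0.598), followed by *Psmb3*, a proteasome subunit (0.449). *Rbm4* was weakly related to *Ikbkb*, a kinase of the NF-kappa-B pathway (0.307), *Commd1* (0.207) and *Gart*, an enzyme of purine synthesis (0.172). The correlation of *Snrnp70* and *Rbm4* was 0.167. Within single region labels it ran from −0.233 in PVN (n = 30) to 0.445 in PFC (n = 32), where mouse 267 was at 0 for both genes. Libraries share depth and size factors, which enter these values.

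An RNA list of 8 other genes in the table was set beside the members, namely *Polr2i*, the methyltransferase gene *Prmt5*, which takes part in snRNP assembly, the ribosomal protein genes *Rps2*, *Rps12*, *Rps25* and *Mrpl54*, the translation factor gene *Abcf1* and the kinase gene *Mknk2*. Their medians over all libraries ran from 44.4 for *Rps2* to 16570 for *Rps12*. Of the 66 region pairs, 22 passed for *Prmt5*, 25 for *Abcf1*, 28 for *Rps12*, 36 for *Rps25*, 37 for *Polr2i*, 40 for *Mrpl54* and 42 each for *Rps2* and *Mknk2*. The 30 pairs of *Snrnp70* lay inside this range, and over all 69 genes the median was 35 pairs. Within regions none of the 288 label tests of the list passed by limma and 4 had an unadjusted p under 0.05. On the mean per mouse none of 24 passed and none had an unadjusted p under 0.05.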

How the data were processed

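Targeted RNA libraries (TruSeq Targeted RNA, MiSeq) were analysed by the region and label group that the labels give. The members, lists and tests were chosen with earlier results of these data known. Of 384 labelled samples, 380 have values. The deposited values are a signal, namely each gene's reads after division by the size factor of its sample. The authors removed reads with a Phred score under 20 or under 25 bases (PRINSEQ lite 0.20.4), used BWA 0.7.12 for the alignment and DESeq2 for normalization, and the submitters' processing notes name mm10. In every sample the values come in whole steps of 1 size (100% of 26220 values within 0.01 of a whole number of steps), so reads were recovered from them. Reads of amplified libraries are not independent molecules, and the limits of 3 reads cover counting error only.

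Values were analysed as log2(value + 1) with limma 3.58.1 (R 4.3.3) over all 69 genes, with a threshold of 0.1 on Benjamini-Hochberg adjusted p-values. Region pairs were fitted over all samples with the label group as a covariate and adjusted over all genes and pairs. Label terms (MS against Co, inject against naive, interaction) were fitted in each region and on the mean per mouse, with a pseudocount of 1 throughout, and region-by-label terms with the mouse as a block. Same-numbered samples come from the same mouse. Deviations of a mouse's samples from their group means correlated with a median of 0.002 over 2068 pairs of regions, against −0.002 for other mice. No columns were identical.

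Named genes are the members, the 3 genes most like each by either correlation among genes whose median reached 100, the RNA list, and genes near 0 in at least 6 of the near-0 samples of *Rbm4*. A gene that this rule names is not reported here. Sequences were read from GRCm38 with GENCODE M21, and windows of 50 bases were matched to all annotated transcripts. On simulated data with 15 of 69 genes changed, limma found 75.1% of 2-fold changes within regions (9.69% of calls false), 100% on the mean per mouse (6.54%) and 80.2% in region pairs (9.63%). It found 84.3% of 4-fold changes of the region-by-status test (7.66%). Python 3.11.15, numpy 2.4.6, pandas 2.3.3 and matplotlib 3.10.9 served for levels, sequences and figures.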

Additional observations from a re-analysis of the deposited data

Results flagged for a closer look

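In 21 of 96 sets of a gene, region label and label group (7 or 8 samples each), a sample stood apart from the others by Dixon's criterion on the log2 or on the linear scale. There were 12 such samples on the log2 scale and 13 on the linear scale, and chance alone would mark about 1 in 20 sets on either scale. The near-0 values of *Rbm4* in AMY and PFC were known when the gene was chosen, so their marks, and the counts that hold them, are a description. Of the 22 marked samples, 12 were the lowest and 10 the highest of their set.

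For *Rbm4* the marked lowest samples were at 0 in AMY Co inject mouse 243, BNST MS inject mouse 81, PFC Co inject mouse 267, PFC MS naive mouse 107 and PVN Co inject mouse 267, and at 5.07 in AMY MS inject mouse 95. The marked highest were 487 in PFC Co naive mouse 241 (next value 109.6), 381 in PVN MS naive mouse 105 (next 118), 294 in dCA1 Co inject mouse 245 (next 103), 266 in dCA3 MS inject mouse 93 (next 149.5), 249 in PVN MS inject mouse 85 (next 117), 237 in AMY Co inject mouse 267 (next 107), 206 in BNST Co naive mouse 227 (next 141) and 150.0 in CER Co naive mouse 253 (next 107). Of these 8 highest samples, 7 were among the 8 libraries with the fewest reads of their region label, with 36865 reads (PFC) to 83529 reads (dCA3). The part of depth in them was not tested.

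For *Snrnp70* the marked lowest samples were 0 in PFC Co inject mouse 267, 41.97 in PVN MS naive mouse 105, 60.0 in AMY Co inject mouse 247, 80.0 in dCA1 Co naive mouse 229, 106 in dDG Co naive mouse 239 and 129 in AMY MS naive mouse 91. The highest were 470.1 in vCA3 MS naive mouse 89 and 398 in PFC MS inject mouse 99. The PVN library of mouse 105, with 69462 reads, thus held the lowest *Snrnp70* value and the highest *Rbm4* value of PVN.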

How the results depend on the processing

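Over 8 results and 66 alternatives, 60 values were classed as the same. For counts this means equal or within 1.5 times, and many were counts of 0 in both settings. For the ratios of region medians it means a shift under 1 SD of the highest label divided by the lowest median (0.63 for *Snrnp70*, 1.09 for *Rbm4*). Like counts can hold other pairs. With every library rescaled to the same total, 7 *Snrnp70* pairs were lost and 5 gained, and 2 *Rbm4* pairs were lost and 10 gained. The *Rbm4* region pairs rose from 16 to 25 with a pseudocount of 10 and to 27 without the 12 near-0 samples, and fell to 6 without the upper *Anxa2* and lower *Ociad2* libraries. Fitted alone, the 6 labels AMY, BNST, PFC, PVN, dCA1 and vCA1 gave 1 of 15 pairs for *Snrnp70* (background 15.3%), where 4 of these 15 passed in the fit of all labels, and BNST, PVN, dCA1 and vCA1 gave 0 of 6 for *Rbm4* (limma, none with an unadjusted p under 0.05, background 12.3%), as in the fit of all, so the lower counts follow in part from fewer pairs tested. With 5 principal components, 1 of 72 label terms passed, *Snrnp70* in vCA3 (0.46, adjusted p = 0.044 by limma), while the background rose from 0.0404% to 4.12%. These components were taken from the residuals of the same fit, so they change no difference but only its SE, and calls under them are not counted as added support. Under a replicate block for the mouse, 30 and 16 region pairs passed, the same pairs as without it. The label terms within regions and per mouse have 1 value per mouse and no block, and the F test holds it already. Without the PFC library of mouse 267 the counts were 32 and 18 region pairs and 0 label terms. That setting, the near-0 samples and the *Anxa2* and *Ociad2* ranges were added after seeing the data. The edgeR alternative on the recovered reads was not run. Depth limits a value of 0 to at most 2.74 in the deepest and 15.2 in the shallowest near-0 PFC library.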

Other observations

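*Rbm4* in the 4 label groups of Pit had medians of 186 in Co inject, 228 in Co naive, 179 in MS inject and 171 in MS naive, with values from 72.2 to 381 overall. In dCA1 the medians were 62.7, 116, 74.8 and 98.2 in the same order, and the lowest value, 2.11, and the highest, 294, both belonged to Co inject. In vDG the *Snrnp70* medians were 241 in Co inject, 319 in Co naive (n = 7), 283 in MS inject and 249 in MS naive, and the MS naive values alone ran from 44.8 to 427. In dCA3 the *Snrnp70* medians were 116, 141, 150.3 and 165 in the order Co inject, Co naive, MS inject and MS naive, with overlapping values.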
